A study of Mus musculus with 2 samples.

Results

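The TGF-beta, activin and BMP pathway was followed in fetal mouse liver of wild type and of a conditional Prox1 knockout. Its members were taken from a list of 47 genes: ligands, latent binding proteins, receptors, secreted antagonists, Smads, corepressors and targets. A gene was read through every probe set that the array annotation assigns to it alone. All 47 had such a probe set, among 18193 genes in all, and together they had 102 probe sets. The study compared whole livers of E14.5 embryos of the strain NMRI/C57Bl6, with 1 array of a Prox1 f/f;Foxa3Cre sample, called the knockout below, and 1 array of a wild-type sample. In the knockout a Cre recombinase under the control of Foxa3, a gene of gut and liver endoderm, acts on a floxed Prox1, the gene of a homeodomain transcription factor that liver progenitors carry. The labels do not state how many embryos gave each RNA, or whether the wild-type embryos carried a floxed allele or Cre. With 1 array per genotype there is no spread between samples, no test and no p-value, and each difference below is between these 2 livers.

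Ligands of this family bind a pair of type II and type I serine/threonine kinase receptors on the cell surface. The type I receptor then phosphorylates receptor Smads, which join Smad4 and enter the nucleus: Smad2 and Smad3 after TGF-beta or activin, Smad1 and Smad5 after BMP. Inhibitory Smads, corepressors such as Ski and secreted antagonists such as follistatin limit the signal. In fetal liver the family is known for the patterning of liver progenitors beside the portal veins, where bile ducts form, and in hepatocytes BMP signalling drives hepcidin, the hormone of iron balance.

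Values are MAS5 signals on a linear scale, as deposited by the authors. The median signal was 112.6 on the knockout array and 101.1 on the wild-type array, and the higher of these was used as a floor: lower signals were set to it ahead of the log2 step. Each gene was read through its brightest probe set and called measured where that probe set lay above the floor on at least 1 array. Where it lay above the floor on 1 array only, the fold is a bound, written "at least". Log2 differences are Prox1 f/f;Foxa3Cre minus wild type. In all, 11433 genes were measured, 10216 of them on both arrays. Prox1 read 221.8 in the knockout and 340.3 in wild type, a log2 difference of -0.62, and all 3 of its probe sets were lower. The labels do not state whether they lie in the deleted part. The arrays also differed in sex-linked RNA: Xist read 365.7 and the Y-linked Eif2s3y read 1972 in the knockout, against 11466 for Xist and 0.87 for Eif2s3y in wild type.

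Most pathway genes read slightly to moderately higher in the knockout, and few were 2-fold apart. Of the 47 members, 37 were measured, 29 of them on both arrays. Only the knockout array measured 6 and only the wild-type array 2. At least 2-fold higher were 3 of the 37, the latent TGF-beta binding proteins Ltbp3 and Ltbp4 and the matrix protein Tgfbi, where 3.27% of all measured genes were. The single member at least 2-fold lower was follistatin, Fst, the secreted trap of activin, where 2.13% of all measured genes were. These shares are 8.11% and 2.70% of 37 genes, so each rests on very few of them. Differences above 0 were found in 33 of 37 members, against 53.9% of all measured genes. Genes above the floor on a single array must differ in that direction, so the 29 members measured on both arrays are given apart: 27 lay above 0 and 2 below, against 52.1% above 0 among all genes measured on both. Their median log2 difference was 0.37, against 0.01 for all such genes. Of these 29, 2 were past 2-fold upwards, Tgfbi and Ltbp4, and 0 downwards, against 2.61% and 1.85% of all genes measured on both. A smaller step showed more of the members: 11 of 37 were at least 1.5-fold higher, where 9.91% of all measured genes were, and 1, Fst, at least 1.5-fold lower, where 5.23% were. The higher ones include Ltbp3 and Acvr2b, above the floor in the knockout alone, and Fst was above it in wild type alone, so their direction was fixed.

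The lean towards higher values was not confined to dim members. Dim genes as a whole read higher on the knockout array, with a median log2 difference of 0.12 for genes measured on both arrays at a mean signal below 250, and of -0.02 above 1000. Among members with a mean signal above 1000, 8 of 9 lay above 0, where 45.4% of all genes in that range did, and their median log2 difference was 0.31. Between 250 and 1000 it was 16 of 17 members, where 55.1% of all genes did, with a median of 0.35. Below 250 just 3 of 11 members were measured on both arrays and the floor fixed the direction of the other 8, so no count is read there. Against genes of like signal, 26 of the 29 differences lay inside the middle 95% of genes in their range, and the 3 others, Tgfbi, Fstl1 and Tgfbr1, lay above it. The robust SD of the log2 difference over genes was 0.21 above 1000, 0.34 between 250 and 1000 and 0.46 below 250.

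**Figure D1:**
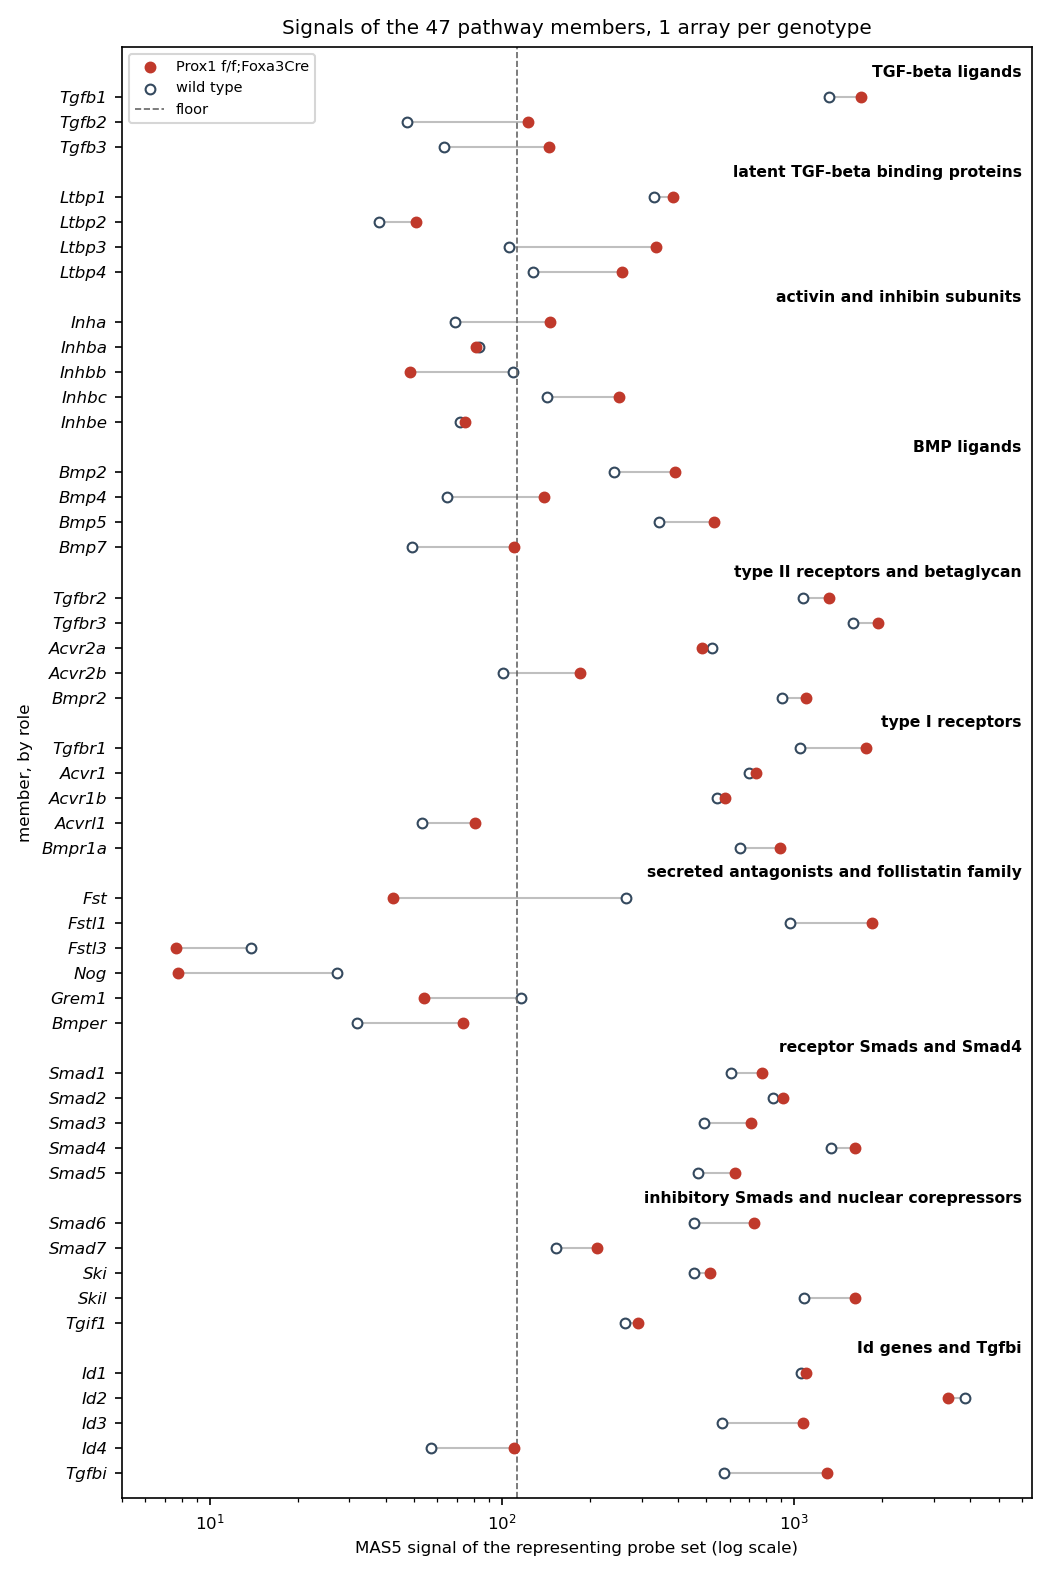
MAS5 signal (log scale) of the representing probe set of each of the 47 members in the knockout (filled red) and the wild-type liver (open), 1 array each, grouped by role. The dashed line is the floor at 112.6. Most filled points lie to the right of their open partner, with Fst, Grem1, Inhbb and Id2 among those on the other side.

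The members more than 2-fold apart encode proteins that hold or trap ligands outside the cell, or matrix. Tgfbi, a TGF-beta-induced protein of the extracellular matrix, read 1295 in the knockout and 574.2 in wild type, 2.26-fold higher. Its other 3 probe sets were also higher, with log2 differences of 1.12, 0.88 and 0.72. The difference exceeded that of 97.8% of genes of like signal. Ltbp3, which tethers latent TGF-beta to the matrix, read 335.0 in the knockout and 105.4, just below the floor, in wild type. It was thus at least 2.98-fold higher, but the other measured probe set of Ltbp3 read 123.6 in the knockout and 41.6 in wild type and gave a bound of only 0.13 on the log2 scale. Ltbp3 was below 2-fold with the higher floor of the 60th percentile (0.82 on the log2 scale) and as the median of its probe sets (0.85). Ltbp4, a related matrix tether, read 257.7 in the knockout and 127.2 in wild type, 2.03-fold higher on its single probe set. The difference of Ltbp4 lay below 2-fold under quantile normalization (0.91 on the log2 scale), lowess correction (0.90), median centring (0.99), a pseudocount of 100 (0.66) and a higher floor (0.44). Tgfbi stayed past 2-fold under every alternative way of computing its difference that was run.

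Start-site regions of Ltbp3, Ltbp4 and Tgfbi are shown because these members were past 2-fold with signals raised to the floor. Members with a smaller bound may stand as far apart. No region was at hand for Fst, so only genes that read higher are shown. The sequences are those of RefSeq on GRCm38.p6, 250 bases before to 50 bases after an annotated start, on the gene's strand. Capitals mark matches to 3 motifs that Smads are known to bind: GGCGCC, a GC-rich BMP response core, and CAGACA and GTCTAGAC, which both hold the Smad box AGAC. Both strands were searched.
Ltbp3, chr19:5740650-5740949, plus strand: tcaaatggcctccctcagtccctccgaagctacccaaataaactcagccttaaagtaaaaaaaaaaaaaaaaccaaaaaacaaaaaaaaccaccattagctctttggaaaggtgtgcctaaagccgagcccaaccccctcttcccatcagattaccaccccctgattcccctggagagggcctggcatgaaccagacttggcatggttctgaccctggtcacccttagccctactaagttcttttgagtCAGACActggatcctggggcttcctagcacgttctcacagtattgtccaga
Ltbp4, chr7:27333599-27333898, minus strand: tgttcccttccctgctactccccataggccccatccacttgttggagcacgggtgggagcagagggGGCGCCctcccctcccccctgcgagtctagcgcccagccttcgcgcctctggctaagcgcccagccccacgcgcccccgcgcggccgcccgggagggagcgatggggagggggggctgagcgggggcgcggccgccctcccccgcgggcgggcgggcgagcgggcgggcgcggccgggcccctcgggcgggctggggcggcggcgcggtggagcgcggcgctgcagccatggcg
Tgfbi, chr13:56609336-56609635, plus strand: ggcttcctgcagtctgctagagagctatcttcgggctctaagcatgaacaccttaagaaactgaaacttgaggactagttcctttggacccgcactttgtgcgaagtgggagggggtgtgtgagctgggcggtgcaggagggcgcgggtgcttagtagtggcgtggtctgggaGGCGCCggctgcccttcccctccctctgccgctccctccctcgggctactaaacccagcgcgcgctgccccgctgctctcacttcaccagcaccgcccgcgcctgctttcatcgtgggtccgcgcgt
The Ltbp3 region holds CAGACA, starting 1 base before the start site. The Ltbp4 and Tgfbi regions shown hold GGCGCC, starting 184 and 77 bases before it. Ltbp4 has 3 annotated start-site regions: a second overlaps the one shown and holds the same match, 169 bases before its start, and the third holds none of the motifs. Such matches are common. GGCGCC was present in 11.9% of 32851 regions of this length, CAGACA in 21.0% and GTCTAGAC in 0.21%. Start-site regions of 35 members were searched, 45 regions in all. Of these, 28.9% held GGCGCC, 20.0% CAGACA and 2.22% GTCTAGAC. Among these 35 members GTCTAGAC was found in Smad6 alone. The remaining members, Fst among them, had no region in the search. Neither presence nor absence of a motif is read for them. A match is a run of letters, and binding was not measured here.

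Among the ligands that latent complexes hold, Tgfb1 was the one measured on both arrays. Tgfb1 read 1691 in the knockout and 1311 in wild type, 1.29-fold higher, and a dim second probe set read 161.2 in the knockout and 168.7 in wild type, nearly equal. Tgfb3 read 144.6 in the knockout and 63.4 in wild type, and Tgfb2 read 122.7 in the knockout and 47.1 in wild type. Each was above the floor in the knockout but not in wild type, with bounds of at least 1.28-fold for Tgfb3 and 1.09-fold for Tgfb2, so the array places them near its limit. The other matrix tethers were no further apart. Ltbp1 read 383.1 in the knockout and 330.0 in wild type, 1.16-fold higher, and Ltbp2 was under the floor throughout, at 50.7 in the knockout and 37.8 in wild type.

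Activin and inhibin subunits were mostly too dim to compare. Inhbc, the activin beta C subunit made chiefly by hepatocytes, read 251.4 in the knockout and 142.8 in wild type, 1.76-fold higher. Inha, the alpha subunit that turns activins into inhibins, read 146.1 in the knockout and 69.2 in wild type and was at least 1.30-fold higher. Inhbc stayed below 2-fold, while the bound of Inha does not tell whether Inha reached it. With the floor at the 30th percentile, the log2 difference of Inha was 1.08. Inhba, the activin A subunit, was under the floor, at 81.3 in the knockout and 83.3 in wild type. So was Inhbb at 48.5 in the knockout and 108.9 in wild type, and its second probe set ran the other way at 90.6 in the knockout and 47.9 in wild type. Inhbe, another subunit of hepatocytes, was equally dim at 74.4 in the knockout and 71.6 in wild type.

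Of the 4 BMP ligands, Bmp2 and Bmp5 were measured on both arrays, and each was higher on its brightest probe set. Bmp2, which in adult mouse liver comes from sinusoidal endothelium and drives hepcidin, read 391.3 in the knockout and 241.2 in wild type, 1.62-fold higher. Bmp5 read 528.8 in the knockout and 343.3 in wild type, 1.54-fold higher. A dimmer Bmp5 probe set was nearly level and read 180.9 in the knockout and 185.2 in wild type. Bmp4, a mesenchymal inducer of liver from foregut endoderm, read 139.0 in the knockout and 64.8 in wild type, at least 1.23-fold higher. The array therefore gives no size for Bmp4 beyond that bound. Bmp7 read 109.8 in the knockout and 49.0 in wild type, under the floor in each.

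Of 6 antagonists, 3 were measured, and only Fstl1 on both arrays. Fst and Grem1 passed the floor in wild type alone, which fixed their direction, so no count by side is read. Fst read 42.5 in the knockout and 264.9 in wild type, at least 2.35-fold lower. Its other probe set read 82.6 in the knockout and 202.1 in wild type, again under the floor in the knockout alone, with a log2 bound of -0.84. With the floor at the 60th percentile, the bound of Fst was -0.48. Grem1, a BMP antagonist known from mesenchyme, read 53.8 in the knockout and 115.6, barely above the floor, in wild type, so its bound was only 1.03-fold lower. Fstl1, a secreted glycoprotein of mesenchyme with a follistatin-like domain, lay in the other direction. It read 1842 in the knockout and 967.4 in wild type, 1.90-fold higher and above 98.5% of genes of like signal. A second Fstl1 probe set read 1419 in the knockout and 545.9 in wild type, a log2 difference of 1.38, so the gene was past 2-fold on that probe set and just short of it on the brighter. The other 3, each a binder of BMP or activin, never reached the floor: Nog, Fstl3 and Bmper read 7.79, 7.68 and 73.4 in the knockout, against 27.1, 13.8 and 31.8 in wild type.

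More receptors than ligands could be measured on both arrays, and by the brightest probe set Tgfbr1 had the highest difference among those receptors. On the probe set with the largest difference, Bmpr2 (0.92 on the log2 scale) and Tgfbr3 (0.78) lay above Tgfbr1 (0.76). Tgfbr1, the type I receptor of TGF-beta, read 1758 in the knockout and 1041 in wild type, 1.69-fold higher and above 97.7% of genes of like signal. Its other 2 measured probe sets were higher too, with log2 values of 0.61 and a bound of 0.20. The BMP type I receptor Bmpr1a read 894.9 in the knockout and 648.9 in wild type, 1.38-fold higher, and each of its 4 measured probe sets lay above 0. The BMP receptor Acvr1 and the activin receptor Acvr1b were nearly level, at 736.3 and 578.2 in the knockout, against 697.9 and 544.3 in wild type. The log2 difference of Acvr1 was 0.08 on the brightest probe set and -0.14 on another, so its sign depends on the probe set. Acvrl1, the endothelial receptor of BMP9, was under the floor at 80.8 in the knockout and 53.2 in wild type.

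The type II receptors Tgfbr2 and Bmpr2 and the coreceptor Tgfbr3 were closer to level on their brightest probe sets. Tgfbr2, which pairs with Tgfbr1, read 1317 in the knockout and 1066 in wild type, 1.24-fold higher. A dim Tgfbr2 probe set read 97.4 in the knockout and 156.4 in wild type, a log2 bound of -0.47, so the sign of Tgfbr2 depends on the probe set. Betaglycan, Tgfbr3, a coreceptor that presents TGF-beta, read 1928 in the knockout and 1585 in wild type, 1.22-fold higher, with 0.78 on the log2 scale for a dimmer probe set. Bmpr2, the type II receptor of BMPs, showed the same pattern of a larger difference on its dimmer probe set. Bmpr2 read 1095 in the knockout and 905.6 in wild type on the brighter probe set, 1.21-fold higher. The dimmer read 368.6 in the knockout and 194.6 in wild type, a log2 difference of 0.92. The activin receptors lay on both sides. Acvr2b read 185.3 in the knockout and 100.5 in wild type, at least 1.65-fold higher, while Acvr2a read 481.2 in the knockout and 524.0 in wild type, 1.09-fold lower, and was lower on both probe sets.

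**Figure D2:**
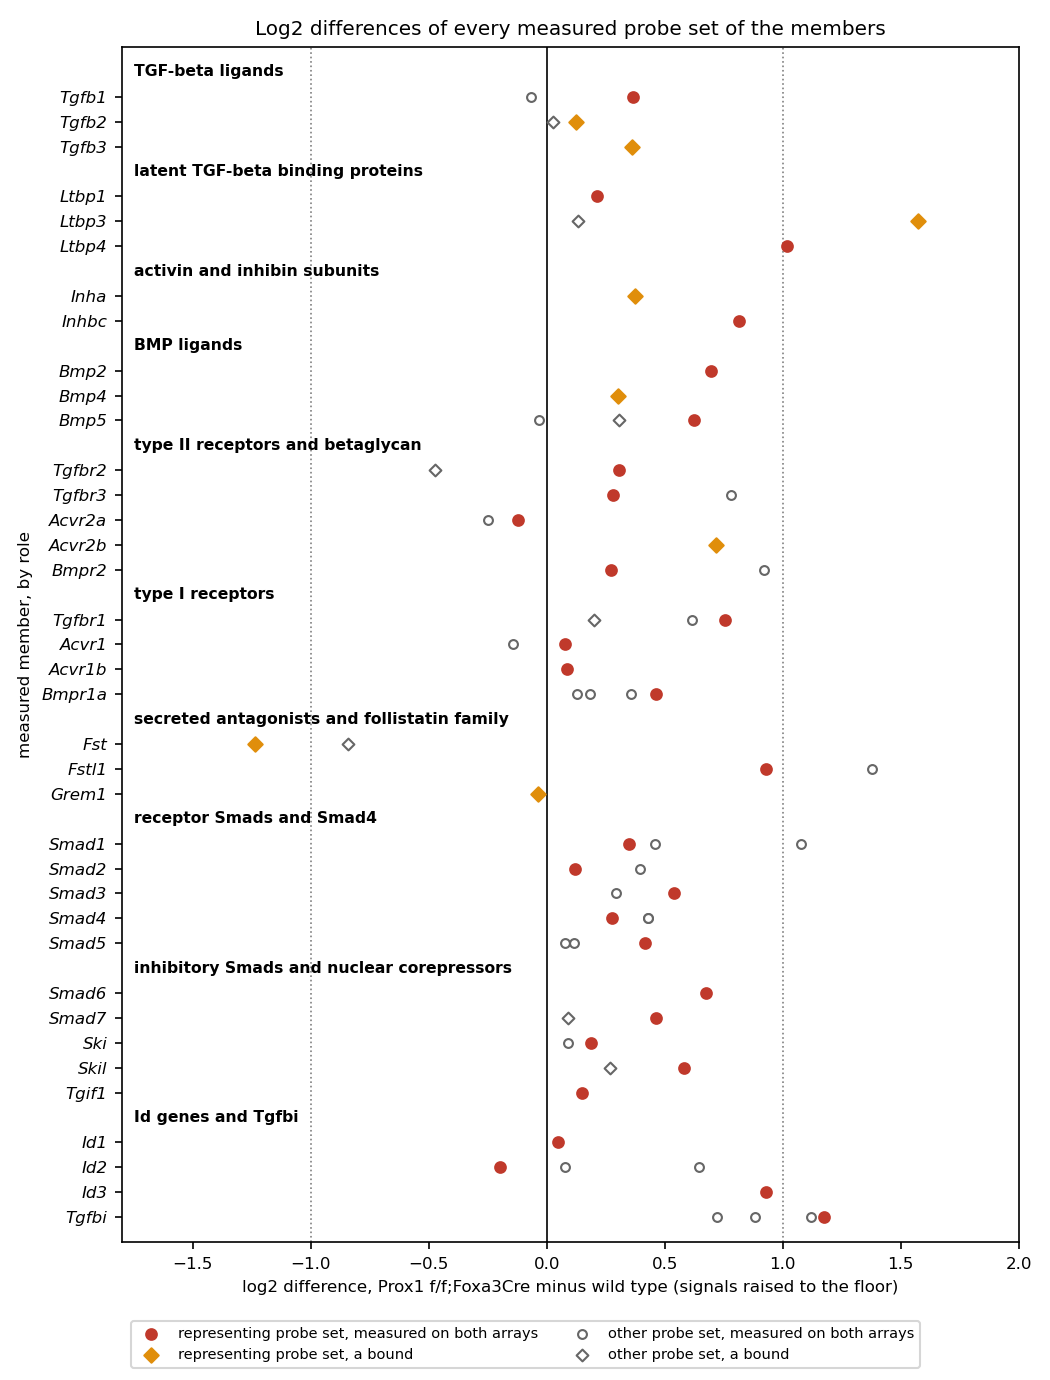
Log2 difference (Prox1 f/f;Foxa3Cre minus wild type) of every measured probe set of the 37 measured members, by role, with filled marks for the representing probe set and diamonds for bounds. Dotted lines mark 2-fold. Of 70 measured probe sets, 60 lie above 0 and 10 below, and 5 members (Tgfb1, Bmp5, Tgfbr2, Acvr1 and Id2) have probe sets on both sides. The floor fixed the side of each diamond, and a gene with several probe sets counts several times. The share above 0 among all measured probe sets was not computed.

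Smad1, Smad2, Smad3, Smad5 and Smad4 read higher, each by less than 1.5-fold on the brightest probe set. Among Smads activated by BMP, Smad1 read 776.4 in the knockout and 609.0 in wild type, 1.27-fold higher. Its other probe sets had log2 differences of 0.46 and 1.08. Smad5 read 626.3 in the knockout and 469.4 in wild type, 1.33-fold higher. Smads activated by TGF-beta and activin lay in the same range. Smad3 read 709.9 in the knockout and 488.8 in wild type, 1.45-fold higher, and Smad2 read 914.5 in the knockout and 841.8 in wild type, 1.09-fold higher. Smad4, the partner of all receptor Smads, read 1613 in the knockout and 1331 in wild type, 1.21-fold higher, with 0.43 on the log2 scale for both of its other probe sets. All 13 measured probe sets of these 5 genes lay above 0.

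The 5 inhibitory Smads and nuclear corepressors among the members read higher as well. Smad6, an inhibitory Smad that BMP signalling induces, read 725.0 in the knockout and 454.7 in wild type, 1.59-fold higher and above 91.6% of genes of like signal. Smad7, the inhibitory Smad induced by TGF-beta, read 210.6 in the knockout and 152.6 in wild type, 1.38-fold higher. Skil, the corepressor SnoN, read 1613 in the knockout and 1079 in wild type, a log2 difference of 0.58. Its relative Ski was 1.14-fold higher and the homeodomain corepressor Tgif1 1.11-fold higher, at signals of 514.9 and 291.3 in the knockout and 451.8 and 262.5 in wild type. None of these 5 was 2-fold apart.

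The Id genes, which encode inhibitors of basic helix-loop-helix factors and are classic BMP targets, lay on both sides of 0. Id3 read 1071 in the knockout and 563.1 in wild type, 1.90-fold higher and above 95.6% of genes of like signal. Id1 was nearly level at 1092 in the knockout and 1056 in wild type, a log2 difference of 0.05. Id2 read 3344 in the knockout and 3835 in wild type, 1.15-fold lower on its brightest probe set, whereas a second read 1561 in the knockout and 1480 in wild type, and a dim one 179.2 in the knockout and 114.7 in wild type. The sign of Id2 thus depends on the probe set. Id4 was under the floor at 109.8 in the knockout and 57.0 in wild type. Its other probe sets were dimmer still, at 79.4 and 72.9 in the knockout, against 58.6 and 32.3 in wild type.

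**Figure D3:**
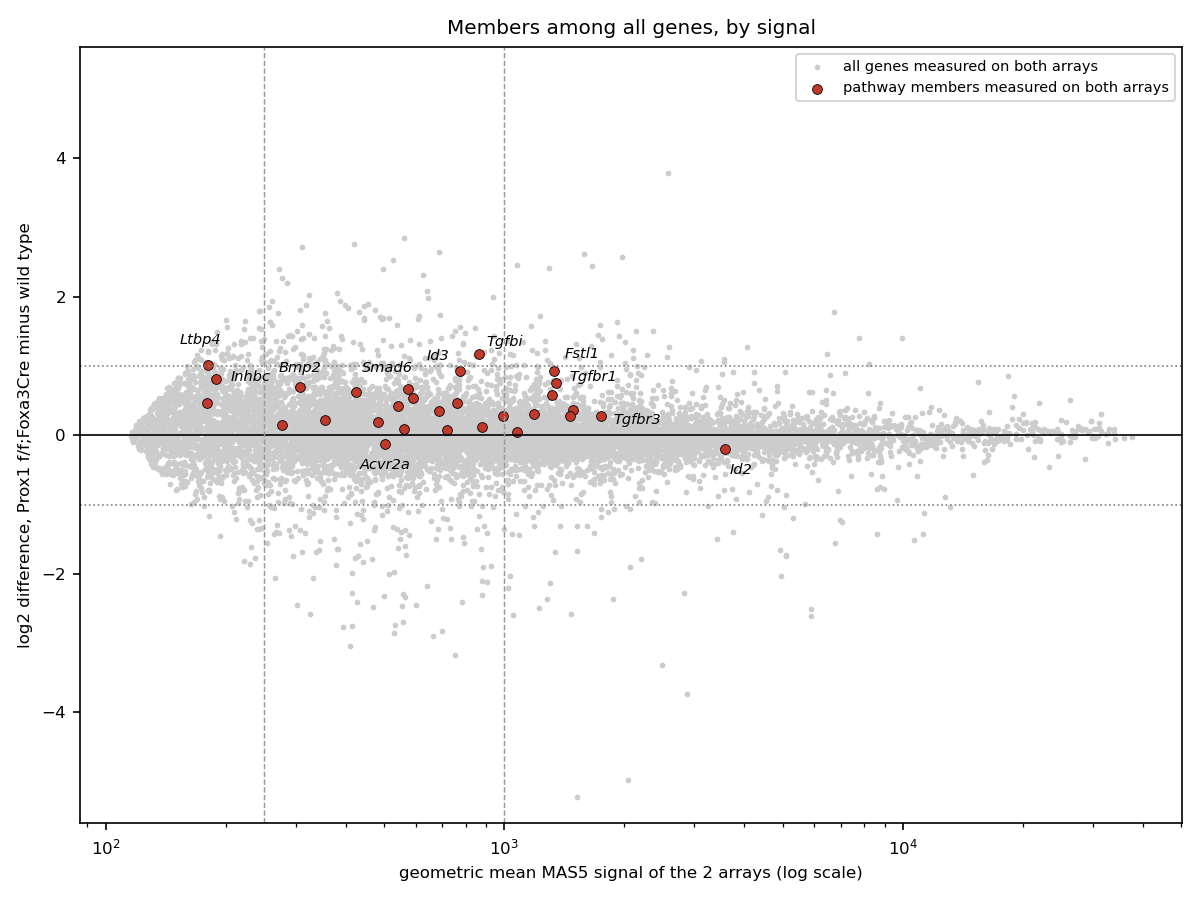
Log2 difference (Prox1 f/f;Foxa3Cre minus wild type) against the geometric mean MAS5 signal (log scale) for all 10216 genes measured on both arrays (grey) and the 29 members among them (red). Dashed lines mark signals of 250 and 1000 and dotted lines 2-fold. The members lie mostly above 0 and inside the grey cloud, with 27 of 29 above 0.

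Other genes of the pathway, from a second list of 67 genes, spread more widely. On the array 61 could be read by the same rule and 39 were measured, with 8 past 2-fold upwards, 2 past 2-fold downwards and 29 between, at a median log2 difference of 0.20. These counts are 20.5% and 5.13% of the measured ones, against the 3.27% and 2.13% of all measured genes given above. Only the knockout array measured 6 of the 39 and only the wild-type array 2, which fixed their direction. Both lower genes were of this kind, and so were Lefty1 and Ccn2 among the higher ones. The 31 genes measured on both arrays had a median log2 difference of 0.26, against 0.01 for all genes measured on both. The liver-derived ligand Gdf2 (BMP9) read 1526 in the knockout and 755.4 in wild type, 2.02-fold higher. Gdf10 (BMP3B), another BMP-related ligand, read 1445 in the knockout and 493.1 in wild type, 2.93-fold higher. Lefty1, a secreted inhibitor of Nodal, read 438.3 in the knockout and 17.2 in wild type, at least 3.89-fold higher, and is closely related in sequence to Lefty2, whose probe set stayed below the floor. The pseudoreceptor Bambi, which dampens TGF-beta and BMP signals, was 2.21-fold higher and the hemojuvelin-binding receptor Neo1 2.26-fold higher. Matrix proteins that bind the ligands were also higher, biglycan (Bgn) 2.55-fold and fibrillin Fbn2 2.31-fold. Ccn2, a matricellular target of TGF-beta, read 273.6 in the knockout and 109.7 in wild type, at least 2.43-fold higher.

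Both genes of this second list that were at least 2-fold lower belong to the hepcidin branch of BMP signalling in hepatocytes. Hepcidin, Hamp, read 60.6 in the knockout and 251.4 in wild type, at least 2.23-fold lower, and both of its probe sets were lower. Whether these probe sets also bind the near-identical Hamp2 RNA was not tested. Hemojuvelin, Hjv, the BMP coreceptor that hepatocytes need to make hepcidin, read 74.6 in the knockout and 356.2 in wild type, at least 3.16-fold lower, with a log2 bound of only -0.14 on its other probe set. In all 9 of the 39 lay below 0 and 76.9% above it, against 53.9% above 0 among all measured genes. The other 7 below 0 were named after their values were seen. On the log2 scale they were Msx1 at -0.44, Junb at -0.27, the Smad phosphatase Ppm1a at -0.26 and Bmp1 at -0.25. Strap was at -0.19, Trim33 at -0.07 and Map3k7 at -0.05, and another Trim33 probe set was higher at 0.41. Of the 13 intracellular regulators of this list that were measured, 9 lay above 0 and 4 below, with Smurf1 highest at 0.87. That is 69.2% above 0 on few genes, against 52.1% of all genes measured on both arrays, at a median of 0.15. Endoglin, Eng, the endothelial coreceptor, read 970.9 in the knockout and 873.6 in wild type, 1.11-fold higher. Smad9 and the TGF-beta target Pmepa1 did not reach the floor, at 25.6 and 81.9 in the knockout, against 41.2 and 66.9 in wild type.

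Marker genes of the cells that make up fetal liver differed between the same arrays, several by more than the pathway members. In whole liver, fewer cells of a type and less RNA per cell cannot be told apart. Of all measured genes, 3.27% were at least 2-fold higher, 2.13% at least 2-fold lower and 53.9% above 0. Stellate and mesenchymal markers were higher: of 20 listed, 19 were measured, 10 were at least 2-fold higher and 18 above 0, with a median log2 difference of 1.05. Their summed signal was 49604 in the knockout and 25687 in wild type. Reln, Mest, Col3a1 and Vim were the brightest of them, and none was at 0. Endothelial markers lay closer to the pathway, with 17 of 17 measured, 16 above 0, 0 at 2-fold, a median of 0.38 and summed signals of 9123 in the knockout and 7415 in wild type. Megakaryocyte markers had a median of 0.37 over 10 genes, with sums of 19669 in the knockout and 16030 in wild type. Macrophage markers had a median of 0.33 over 13 genes and mesothelial markers 0.44 over 7. Above the floor in the knockout alone were 3 of these mesothelial markers, and 2 each of the endothelial and megakaryocyte ones. Cholangiocyte markers had a median of 0.21 over 7, with 6 above 0, 5 of them above the floor in the knockout alone, and sums of 4299 in the knockout and 2463 in wild type. Of these, 3 were past 2-fold, each above the floor in the knockout alone: Krt19 at least 8.72-fold, Cldn7 at least 6.34-fold and Epcam at least 2.42-fold higher. They were named after their values were seen, and Krt19 is on the mesothelial list too. Of the other 4 measured, Cdh1 was at 0.21 and Prom1 at -0.43 on the log2 scale. Sox9 and Krt7 had bounds of 0.18 and 0.01, which do not tell whether they reached 2-fold. Cftr, Onecut1 and Muc1 did not reach the floor. Granulocyte markers stood as high as the mesenchymal ones, with 13 of 13 above 0 and a median of 1.02. Erythroid markers were level at -0.01 over 9 genes.

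Hepatocyte markers were lower, with 11 of 12 measured below 0, 6 at least 2-fold lower and a median log2 difference of -0.97. Of all measured genes, 2.13% were at least 2-fold lower. The brightest, Afp, Ttr, Alb and Apoa1, read 35212, 33415, 33186 and 25348 in the knockout, against 36369, 34600, 32396 and 32222 in wild type, so RNA of these liver proteins was abundant on both arrays. Mesenchyme, endothelium, megakaryocytes and macrophages are known sources of many of these pathway genes, Tgfbi, Fstl1 and Tgfb1 among them, and hepatocytes of Hamp, Hjv, Inhbc and Inhbe. The part of these cell types in the pathway differences was not tested, and the Prox1 genotype and the sex-linked RNA above cannot be told apart with 1 liver sample each.

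**Figure D4:**
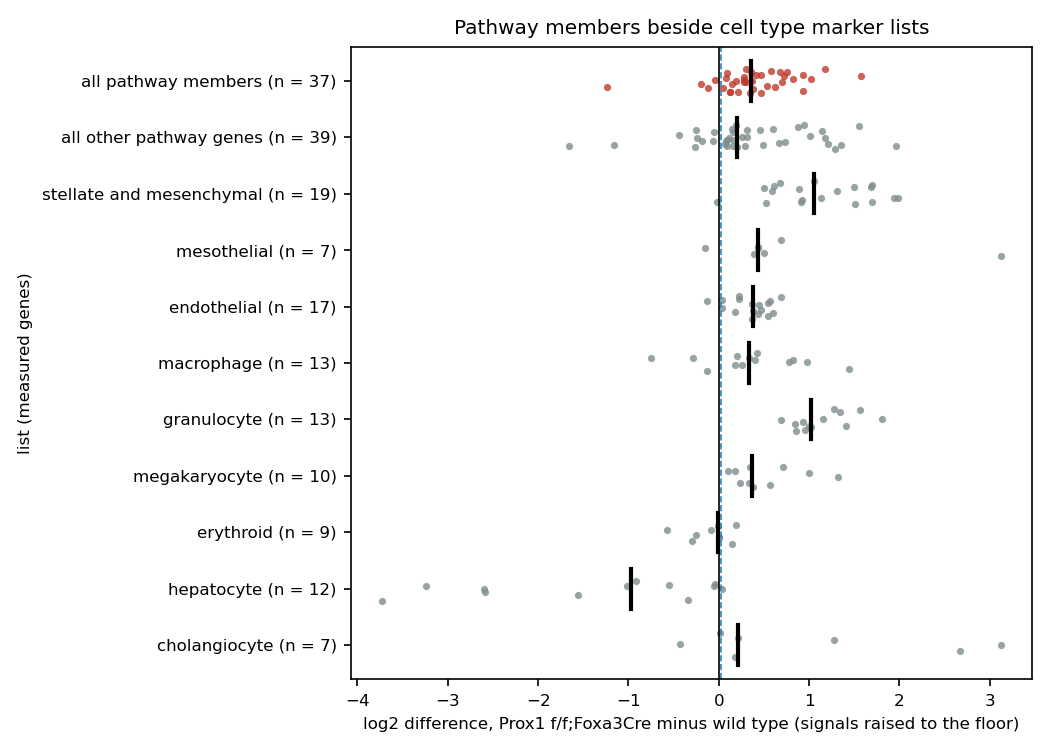
Log2 differences (Prox1 f/f;Foxa3Cre minus wild type) of single measured genes for the pathway members (red), the other pathway genes and 9 cell type marker lists (grey), with black bars at each list's median and a dashed line at the median of all measured genes, 0.03. The members' median of 0.36 lies near those of endothelial, megakaryocyte and macrophage markers and below those of mesenchymal and granulocyte markers.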

How the data were processed

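Total RNA of 1 liver sample per genotype was labelled by the Affymetrix one-cycle procedure and hybridized to 1 array each, per the labels' protocols. The values deposited by the authors are intensities, named MAS5 signals in the submitters' processing notes, which give no version. The 2% trimmed mean was 500.0 on both arrays, so no further scaling was applied. MAS5 subtracts mismatch signal, so dim probe sets scatter. Each array held 45101 probe sets, of which 64 controls were left out. The platform annotation gave 1 symbol for 34945, several for 932 and none for 9160, and 34741 identifiers were found in RefSeq (GRCm38.p6), changing 0 symbols.

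Genes were counted by size at 2-fold, with signals raised to a floor at the higher of the arrays' 50th percentiles. The percentile given for a member is the share of genes measured on both arrays in the same signal range (below 250, 250 to 1000, above 1000) with a lower log2 difference. The robust SD is the interquartile range scaled to a normal SD. The number of arrays limits the precision. The members and lists were chosen with earlier results of these data known. All members were named. From the second list, genes past 2-fold were named, and also Hamp, Bambi, Eng, Pmepa1 and Smad9, while 1 gene of that rule is not reported here. Alternatives were other floors, a pseudocount, other ways of joining probe sets, other scalings and other fold sizes. Figures were drawn with matplotlib 3.10.9. Tables were handled with pandas 2.3.3 and numpy 2.4.6 in Python 3.11.15, the lowess fit came from statsmodels 0.14.6 and trimmed means from scipy 1.17.1. The counting was tested on simulated arrays.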

Additional observations from a re-analysis of the deposited data

How the results depend on the processing

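The lean of the members above 0 was kept under every alternative run, while counts past 2-fold, which rest on few genes near the floor, were not. Across floors, scalings and probe set choices members above 0 numbered from 28 of 31 to 39 of 47, where 52.2% and 55.3% of all genes were above 0. Except with no floor, these counts include members above the floor on 1 array only, whose direction was fixed. The median of the members stayed between 0.31 and 0.46. A floor at the 30th percentile gave 8 members higher and 3 lower and a median of 0.46, where 5.48% and 2.88% of all genes were higher and lower. At the 60th percentile it was 1 and 0, against 2.55% and 2.01%. With no floor and no filter it was 9 and 4 of 47, against 13.0% and 8.08%, so the lower share was near that of all genes. Taking the probe set with the largest difference gave 5 higher, against 3.94%, and a median of 0.46. At 1.5-fold 11 were higher, against 9.91%, with Ltbp3 and Acvr2b among them on bounds. At 3-fold 0 were higher and 0 lower, against 0.875% and 0.892%. Among the 25 members above 250 on both arrays, an alternative chosen after seeing the data, 1 was higher and 0 lower, against 1.54% and 1.46%. Of 327 member values under alternatives, 27 moved by more than the robust SD of genes of like signal, and the sign turned for Tgfbr2, Acvr1 and Id2 with the choice of probe set. For the other pathway genes, alternatives added after seeing the data gave 0 lower with a floor at the 60th percentile (2.01% of all genes), 14 higher and 4 lower of 61 with no floor (13.0% and 8.08%), 3 higher with log2(signal + 100) (2.22%), 1 lower as the median of probe sets (2.02%), and a median of 0.46 on the probe set with the largest difference. The difference of Gdf2 was below 2-fold after median centring (0.98 on the log2 scale). With log2(signal + 100), Gdf2 (0.93), Bambi (0.97), Neo1 (0.89), Fbn2 (0.88) and Ccn2 (0.83) were all below 2-fold. Ccn2 was also below it with the floor at the 60th percentile (0.52). Signals near the floor limit what can be said of Tgfb2, Tgfb3, Bmp4, Inha and Grem1. No paired analysis was possible because each genotype has 1 sample.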
